A study of Homo sapiens with 6 samples.

Results

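The group consists of 10 genes: REST, the granins SCG2, SCG3, CHGA and CHGB, the granin-like VGF, and 4 further genes listed as REST targets, UNC80, GDAP1, MMP24 and SEZ6. They are 10 of the 14779 genes with a named probe set, all were measured, and each had 1 probe set. The list was selected on its biology and with the shGLDC99 minus shGFP differences of these same arrays known, so those differences are given as a description of the members, without p-values. Lists of neighbouring genes, which leave the members out, carry the tests. These lists, too, were chosen with earlier results of these data known, so their p-values and shares are no independent evidence.

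RNA came from LA1-55n, an established human neuroblastoma line, on Affymetrix Human Gene 2.0 ST arrays. The shGFP group (3 arrays, a to c) carried a teton hairpin against GFP and served as control, and the shGLDC99 group (3 arrays, a to c) carried one against the glycine cleavage enzyme GLDC. Both had 0.5 µg/ml doxycycline for 7 days, so the inducer was shared by all 6 arrays. Each group rests on 1 line and 1 hairpin, and nothing says whether the samples of a group came from separate cultures, so p-values measure only the spread between these samples.

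REST is a zinc-finger repressor that keeps neuronal genes silent in cells that are not neurons, and its level usually falls as neurons mature. It binds a DNA element called RE1, built of a pair of half-sites, and recruits CoREST and SIN3 complexes with histone deacetylases and methyltransferases. Granins are acidic proteins of the secretory granule. They aggregate in the Golgi, help to form dense-core vesicles, and are cut at basic residues into peptides that neuroendocrine and sympathetic cells release together with catecholamines. Neuroblastoma arises from the sympathetic lineage, in which granins are common markers.

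Promoter windows show how far the RE1 letters can be read near the members' starts. RefSeq windows (GRCh38.p14, 250 bases before to 50 after an annotated start) were searched for 6 members, with 2 starts for REST. Windows of SCG2, CHGB, SEZ6 and GDAP1 were not used here. Both strands were searched for the half-sites TTCAGCACC and, 2 bases further on, GGACAGCGC, and each window was scored by its best match out of 18 positions. A wider spacing of 7 to 10 bases, another known form of the element, was added after the windows had been read. The 3 best matches are shown because they lie in members of different kinds, a secreted precursor, a granin and a channel subunit. They are written along the element, with the half-sites in capitals.
VGF: TTCAGCACGctGGACAGCGC
SCG3: TTCAGCACCcacagggcGGACAGCGC
UNC80: TTCAGCACCtcccactgtGGACAGCGG

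The VGF element matched 17 of 18 positions at the usual spacing of 2 bases, a score reached by 0.0256% of the 35116 windows (9 windows). It lay on the opposite strand across the start, from base -9 to base 11. The SCG3 element held both half-sites complete, 18 of 18, but 8 bases apart, and ran from base 9 to base 34. At spacings of 7 to 10 bases that score occurred in 0.00854% of windows (3 windows). The UNC80 element matched 17 of 18 with a gap of 9 bases, on the opposite strand from base -65 to base -39, a score reached by 0.0313% of windows at those spacings. The complete left half-site alone, present in SCG3 and UNC80, occurred in 0.376% of all windows. The members had been listed as REST targets, so these matches describe them and are no independent evidence, and no binding was measured here.

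The full windows follow on the strand of each gene, VGF at chr7:101165520-101165819 (minus strand), SCG3 at chr15:51681253-51681552 (plus strand) and UNC80 at chr2:209771582-209771881 (plus strand), with the half-sites in capitals.
VGF: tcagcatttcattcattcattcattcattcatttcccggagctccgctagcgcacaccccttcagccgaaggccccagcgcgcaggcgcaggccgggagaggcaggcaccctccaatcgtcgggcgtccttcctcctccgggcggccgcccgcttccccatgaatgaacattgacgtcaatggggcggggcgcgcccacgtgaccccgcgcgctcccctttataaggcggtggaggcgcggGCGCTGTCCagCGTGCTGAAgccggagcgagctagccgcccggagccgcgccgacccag
SCG3: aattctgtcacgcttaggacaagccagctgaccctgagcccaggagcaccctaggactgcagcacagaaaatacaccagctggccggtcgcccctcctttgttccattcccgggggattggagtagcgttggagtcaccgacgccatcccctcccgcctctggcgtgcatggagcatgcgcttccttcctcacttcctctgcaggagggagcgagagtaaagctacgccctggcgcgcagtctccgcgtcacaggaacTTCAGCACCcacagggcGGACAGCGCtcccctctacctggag
UNC80: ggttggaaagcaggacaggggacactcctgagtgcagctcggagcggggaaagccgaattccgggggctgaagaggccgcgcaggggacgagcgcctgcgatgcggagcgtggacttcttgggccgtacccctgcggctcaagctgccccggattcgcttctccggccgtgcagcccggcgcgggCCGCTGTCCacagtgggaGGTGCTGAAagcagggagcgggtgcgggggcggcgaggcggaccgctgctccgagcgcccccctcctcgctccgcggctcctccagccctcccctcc

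In the windows of CHGA and MMP24 the best match over all spacings was 12 of 18. For REST itself it was 12 at the upstream start and 13 at the downstream start. CHGA and the upstream REST start reached 12 only at the wider spacings and 11 at the usual one. At the usual spacing 66.5% of all windows reached 11, 22.7% reached 12 and 4.35% reached 13. At the wider spacings 53.4% reached 12 and 13.3% reached 13. These letters are therefore not in those windows, which says nothing of sites elsewhere in the genes.

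**Figure D1:**
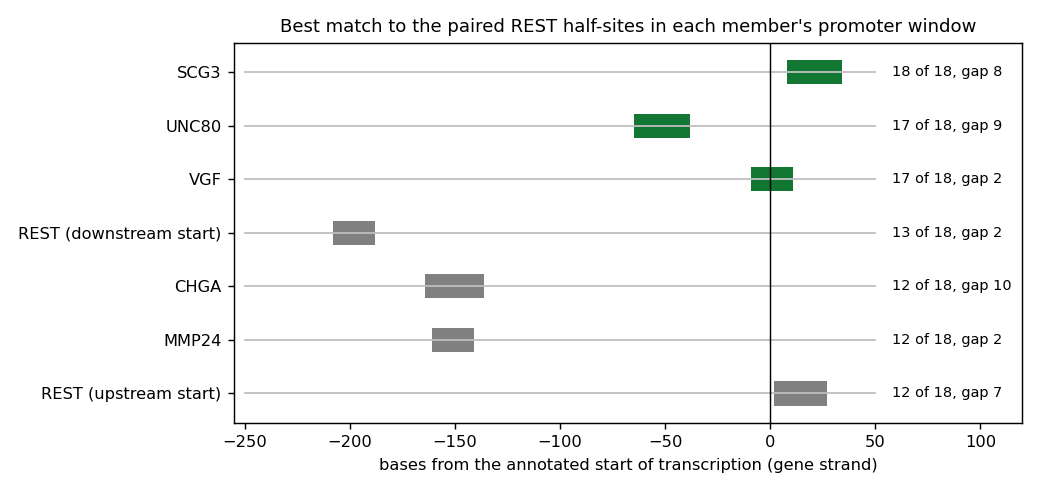
Position of the best match to the paired half-sites in each member's 300-base promoter window, in bases from the annotated start along the gene; text at the right gives the positions matched of 18 and the bases between the half-sites. The bars of SCG3, UNC80 and VGF (green) match 17 or 18 positions and lie close to the start, whereas the other 4 windows (grey) reach 12 or 13.

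GLDC, the gene targeted by the hairpin, read 7.85, 7.90 and 7.81 on shGFP arrays a to c and 5.98, 5.65 and 5.93 on shGLDC99 arrays a to c, with 24.9% of the control level left. Array medians lay between 4.28 and 4.33. Values were read as log2 intensity, a base inferred from their range, and every fold below rests on it. Sympathetic markers were present: of 11 measured, 8 lay above the median gene level of 5.09 on at least 1 array, with HAND2 at a mean of 7.98 and GATA3 at 9.65 in shGFP cells. DBH, a defining enzyme of that lineage, lay at a mean of 4.45 in shGFP cells, under that median. Their summed log2 level ran from 70.6 to 72.2 in shGFP and from 69.1 to 71.0 in shGLDC99 cells, with 1 rise (INSM1) and 3 falls (ISL1, GATA2, GATA3). Markers of glial cells (5 of 5 measured), endothelium (2 of 2) and epithelium (4 of 4) lay under the median gene level on every array, as did 2 of 4 fibroblast and 2 of 3 leukocyte markers. Of these 18 markers 1 changed, LUM, which rose by 0.52 with both group means under the median gene level. Whether any of this has a part in the results below was not tested. In such bulk RNA, fewer cells with a transcript and less of it per cell cannot be told apart.

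REST was lower on all shGLDC99 arrays. Its log2 level was 6.87, 6.92 and 7.00 on shGFP arrays a to c and 5.68, 5.62 and 5.33 on shGLDC99 arrays a to c. The groups were separated by 1.20 log2 units, and the shGLDC99 arrays scattered more (SD 0.184, n = 3) than the controls (SD 0.0621, n = 3), array c being the lowest. The difference was -1.39 ± 0.103 (SE, 95% interval -1.63 to -1.14), so that 38.3% of the control level was left. Of the 14779 genes, 8 had a larger fall.

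SCG2, the precursor of the peptide secretoneurin, stood at the other end of the group. It read 8.07, 8.03 and 7.96 on the shGFP arrays and 9.48, 9.44 and 9.43 on the shGLDC99 arrays. Arrays of a group lay close together and the groups were 1.36 apart. The difference was 1.43 ± 0.0631 (SE, 95% interval 1.28 to 1.58), or 2.70-fold, and 4 genes rose more.

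The other granins moved far less. CHGB, or chromogranin B, read 7.39, 7.39 and 7.43 in shGFP cells and 7.89, 7.78 and 7.78 in shGLDC99 cells. Its groups were clearly apart, with a difference of 0.41 ± 0.0647 (SE), or 1.33-fold. SCG3, which links granin aggregates to the cholesterol-rich vesicle membrane, read 8.86, 8.86 and 8.93 against 9.09, 9.08 and 9.15, with a difference of 0.22 ± 0.0618 (SE). Its groups did not overlap but came within 0.15 of each other. CHGA, chromogranin A, a clinical marker of neuroendocrine tumours, read 7.87, 7.75 and 7.89 against 7.93, 7.97 and 7.86. It was the only member whose groups overlapped. Its difference of 0.09 had a 95% interval from -0.0826 to 0.253.

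VGF encodes a neurotrophin-inducible precursor that is stored with granins and cut into several neuropeptides. It read 6.81, 6.97 and 7.07 on the shGFP arrays and 7.65, 7.54 and 7.39 on the shGLDC99 arrays. The groups lay 0.32 apart, somewhat more than the range within either, and the difference was 0.57 ± 0.100 (SE), or 1.49-fold. Array c of the shGLDC99 group had the lowest value of its group for VGF, as it had for REST, SCG2, CHGA and, narrowly, CHGB.

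**Figure D2:**
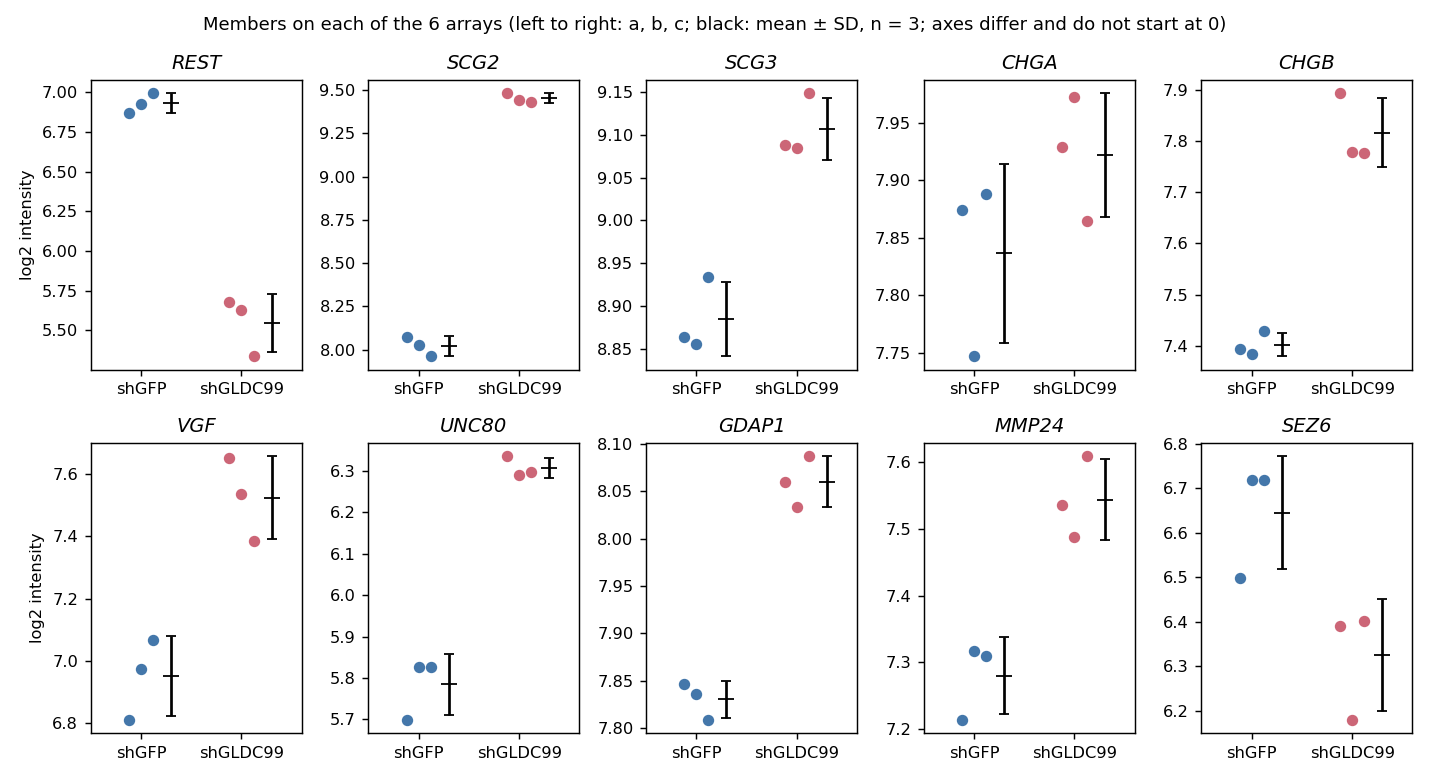
Log2 intensity of the 10 members on each array, shGFP in blue and shGLDC99 in red, with arrays a, b and c from left to right in each group and the mean ± SD (n = 3) in black; each panel has its own axis, which does not start at 0. REST falls from about 6.93 to 5.54 and SCG2 rises from 8.02 to 9.45, while only CHGA has overlapping groups.

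Of the remaining members, UNC80 differed most. It encodes a large subunit of the complex around NALCN, the sodium leak channel that sets neuronal resting potential. It read 5.70, 5.83 and 5.83 in shGFP cells against 6.33, 6.29 and 6.30 in shGLDC99 cells, so the groups were separated by 0.461. The difference was 0.52 ± 0.0662 (SE), or 1.44-fold.

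MMP24, a membrane-anchored metalloproteinase of neurons, read 7.21, 7.32 and 7.31 against 7.54, 7.49 and 7.61, a difference of 0.26 ± 0.0677 (SE). GDAP1, a mitochondrial outer-membrane protein mutated in an inherited neuropathy, read 7.85, 7.84 and 7.81 against 8.06, 8.03 and 8.09, a difference of 0.23 ± 0.0583 (SE). Both were higher on all shGLDC99 arrays, by 1.20-fold and 1.17-fold.

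SEZ6, a neuronal surface protein shed by the protease BACE1, went the other way. It read 6.50, 6.72 and 6.72 in shGFP cells and 6.39, 6.18 and 6.40 in shGLDC99 cells. The difference was -0.32 ± 0.0974 (SE), and the closest arrays of the groups were only 0.0967 apart. It was thus the single member besides REST that was lower.

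Of the 9 members other than REST, 8 were higher in shGLDC99 cells, with a median difference of 0.26 beside -0.01 over all genes. The groups did not overlap for 9 of the 10 members, beside 30.8% of all genes. In the limma fit over all 14779 genes (adjusted p under 0.05), 4 members rose (SCG2, CHGB, VGF and UNC80) and 1 fell (REST). Over all genes 3.72% rose and 4.80% fell. Since this contrast was known when the members were listed, nothing is read from these counts or from how they move. CHGB and VGF were each past the threshold in only 2 of the 6 fits that lacked 1 array, CHGB without shGLDC99 b or c and VGF without shGFP c or shGLDC99 c. When limma's prior variance was let follow intensity, or genes in the dimmest 40% were dropped, 9 of the 10 were past it, CHGA being the exception. Calls over all genes were also more frequent in these fits. With the prior following intensity 1088 rose and 1350 fell of 14779, and without dim genes 969 rose and 1252 fell of 8867.

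**Figure D3:**
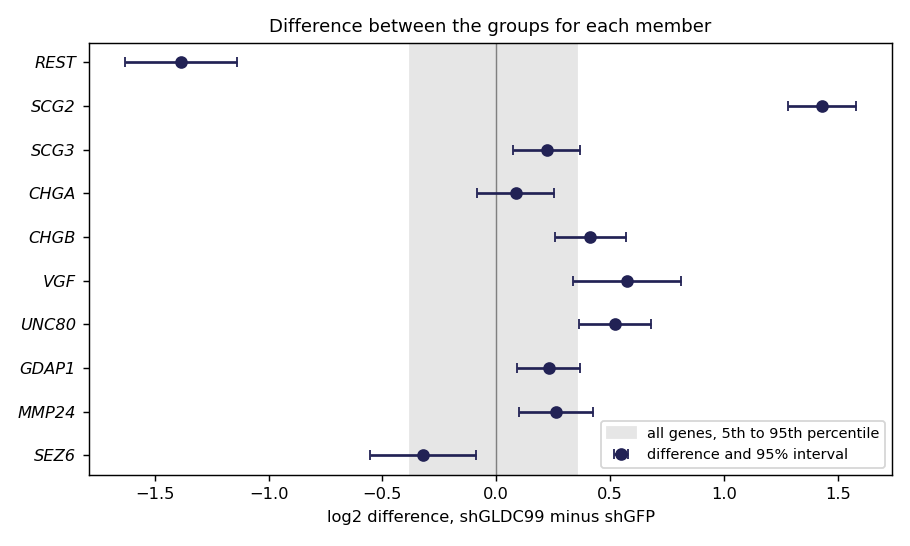
Difference between shGLDC99 and shGFP for each member on the log2 scale (points) with its 95% interval (bars); the grey band spans the 5th to 95th percentile of all 14779 genes, -0.378 to 0.355. REST lies to the left of the band, and SCG2, VGF, UNC80 and CHGB lie to its right with SCG2 farthest, while the points of the other 5 members fall inside it.

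Profiles over the 6 arrays most like that of REST were found by the root mean square distance of log2 values centred on each gene's mean. They belonged to JAG1 (distance 0.106), HMCN1 (0.137), MDFIC (0.152), FN1 (0.156) and NELL1 (0.158), all lower in shGLDC99 cells. The profile of REST itself had a root mean square of 0.702 on that scale. For SCG2 (0.717) the nearest were DUSP4 (0.0969), GPRIN3 (0.111), CLU (0.142), TSPYL6 (0.152) and the probe set of MIR215 (0.157), all higher. Likeness over 6 arrays in separate groups mainly reflects a group difference of like size. HMCN1, MDFIC, NELL1, GPRIN3 and MIR215 had a group mean under the median gene level, so their sizes are less certain.

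Among genes that REST works with, several cofactors were lower in shGLDC99 cells. Of 29 listed corepressor and turnover genes 20 were measured, of which 5 fell and 0 rose (limma, adjusted p under 0.05). That is 25% changed, beside 8.52% of all genes, with a median difference of -0.09. The list was brighter than genes at large, the mean of only 1 of the 20 lying under the median gene level. Without the dimmest 40% of genes 1 of the 20 rose and 5 fell, beside 969 rises and 1252 falls among 8867 genes. In that fit the share called in the list lay much nearer to the share of all genes. At an unadjusted p under 0.05 1 was higher and 6 were lower. The share of all genes under that unadjusted p was not counted. Nothing is therefore read from the unadjusted counts, here or in the lists below. The histone deacetylase HDAC1 fell by 0.55 ± 0.0618 (SE, adjusted p = 0.0066). Its values were 8.71, 8.75 and 8.78 in shGFP and 8.25, 8.17 and 8.18 in shGLDC99 cells. EHMT2, the histone methyltransferase also called G9a, fell by 0.47 ± 0.0651 (SE, adjusted p = 0.0103). PRICKLE1, which escorts REST to the nucleus, fell by 0.50. The CoREST protein RCOR2 fell by 0.36, and BTRC, the ubiquitin ligase subunit that marks REST for degradation, fell by 0.31.

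The scaffolds SIN3A (-0.09) and RCOR1 (-0.14), the demethylase KDM1A (-0.13) and HDAC2 (-0.05) were not past the threshold in this fit. With a prior variance that follows intensity RCOR1 and KDM1A fell as well and RCOR3 rose. HDAC1 and EHMT2 fell with any 1 of the 6 arrays left out, PRICKLE1 in 1 of these 6 fits and RCOR2 and BTRC in 0. Each fit that lacked 1 array, whichever it was, gave 2 or 3 falls. SRRM4, the splicing factor that inactivates REST in neurons, differed by 0.07 (limma adjusted p = 0.613).

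REST targets outside the group changed in both directions. A list of 94 genes described as REST targets had 49 measured, of which 27 were higher and 22 lower, with a median difference of 0.07. Past the threshold, 2 rose and 5 fell, or 14.3% changed beside 8.52% of all genes. The mean of 17 of the 49 lay under the median gene level. At an unadjusted p under 0.05, 12 were higher and 6 lower. With a prior variance that follows intensity 8 rose and 6 fell, beside 1088 and 1350 of all 14779 genes. Without the dimmest 40% of genes 7 of 34 rose and 5 fell, beside 969 and 1252 of 8867. Which direction holds more calls in the list thus depends on the fit. The adhesion molecules L1CAM and NCAM1 rose by 0.55 (adjusted p = 0.0156) and 0.43 (adjusted p = 0.0139). L1CAM read 6.54, 6.59 and 6.75 in shGFP and 7.30, 7.10 and 7.12 in shGLDC99 cells. L1CAM was past the threshold only without shGFP c or shGLDC99 b among the fits that lacked 1 array, and NCAM1 only without shGFP a or b.

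Of the falls among these targets, NPAS4, an activity-induced transcription factor, was the largest at -0.98 ± 0.128 (SE, limma adjusted p = 0.00924). It read 6.69, 6.70 and 6.73 against 6.03, 5.60 and 5.57, array a of the shGLDC99 group being nearest to the controls. SYT4, a synaptotagmin of dense-core vesicles, fell by 0.61, the calcium sensor VSNL1 by 0.58 from a level under the median gene, and the brain ubiquitin ligase TRIM9 by 0.45. LIN28B, an RNA-binding protein that blocks microRNA processing and no neuronal effector, fell by 0.27 (adjusted p = 0.04996).

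Of the targets that were not past the threshold, some synaptic genes are given here, picked after their values were seen. SYN1, a synaptic vesicle phosphoprotein, differed by 0.22 (limma adjusted p = 0.149), and rose when the prior variance followed intensity. Synaptophysin (SYP), a vesicle membrane protein, differed by 0.30 (0.110), and rose without the dimmest 40% of genes. The calcium sensor SYT1 differed by -0.04. Across the 6 fits that lacked 1 array 0 or 1 of the list rose and 2 to 4 fell, NPAS4 and SYT4 in all 6, VSNL1 in 5, TRIM9 in 1 and LIN28B in 0. L1CAM, NCAM1, ACTL6B, BSN, CSPG5 and SEZ6L rose both without the dimmest 40% of genes and when the prior variance followed intensity.

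Genes that process granins and prohormones included clear rises. Of 17 listed 15 were measured, of which 2 rose and 0 fell (13.3% changed beside 8.52% of all genes), with a median difference of 0.06. The prohormone convertases PCSK1 and PCSK2 were not measured. At an unadjusted p under 0.05 6 were higher and 1 was lower. CPE, the carboxypeptidase that trims basic residues from cut prohormones, read 6.30, 6.19 and 6.12 in shGFP and 6.83, 6.80 and 6.99 in shGLDC99 cells. It rose by 0.67 ± 0.0819 (SE, limma adjusted p = 0.00804), or 1.59-fold. PAM, which adds the carboxy-terminal amide that many neuropeptides need, read 5.28, 5.41 and 5.27 against 5.95, 5.95 and 5.88. It rose by 0.61 ± 0.0682 (SE, limma adjusted p = 0.00657), or 1.52-fold.

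Both enzymes rose with any 1 of the 6 arrays left out. PCSK1N, the granin-like inhibitor of a prohormone convertase, differed by 0.67 but with wide scatter among shGFP arrays (SD 0.317, n = 3; limma adjusted p = 0.0621). It and RNPEP rose, and CPD fell, with an intensity-following prior or without the dimmest 40% of genes. Calls over all genes were more frequent in those fits too. SCG5, the granin relative that helps a convertase to mature, read a mean of 2.87 in shGFP cells, under the median gene level, and differed by less than 0.01.

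Among neuropeptide precursors the calls were few, and most of the genes were dim. Of 39 listed 34 were measured, of which 0 rose and 1 fell (2.94% beside 8.52% of all genes), with a median difference of 0.04. The mean of 26 of the 34 lay under the median gene level. At an unadjusted p under 0.05 1 was higher and 4 were lower. The fall was that of PROK2, a secreted ligand of G-protein-coupled receptors, by 0.38 ± 0.0624 (SE, limma adjusted p = 0.0169). That call was lost in each of the 6 fits that lacked 1 array, of which the fit without shGFP b gave 1 fall (STC1) and the others 0.

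The next smallest p-values were also of precursors with lower values in shGLDC99 cells. The appetite-related peptide NPW differed by -0.27 (limma adjusted p = 0.0541), the secreted glycoprotein hormone STC1 by -0.35 (0.0772) and gastrin-releasing peptide (GRP) by -0.25 (0.101). Without the dimmest 40% of genes 12 of the list were tested, of which these 3 and PROK2 fell. In that fit 1252 of 8867 genes fell. With a prior variance following intensity PROK2, NPW and STC1 fell, and with arrays centred on their medians PROK2 and NPW. Galanin (GAL), NPY and VIP, picked after their values were seen as familiar peptides of sympathetic cells, differed by 0.06, 0.06 and -0.09, and NPY and VIP lay under the median gene level.

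The machinery that builds, moves and releases dense-core vesicles changed in both directions. Of 64 listed genes 43 were measured, of which 5 rose and 2 fell (16.3% changed beside 8.52% of all genes), with a median difference of 0.00. The mean of 9 of the 43 lay under the median gene level. At an unadjusted p under 0.05, 12 were higher and 3 lower. SYT11, a synaptotagmin that does not bind calcium, rose by 0.77 ± 0.0698 (SE, limma adjusted p = 0.00378), or 1.70-fold. It read 9.52, 9.50 and 9.61 against 10.3, 10.3 and 10.4. HID1, needed for granule formation at the trans-Golgi network, rose by 0.65, and KIF1A, the motor that carries dense-core vesicles along axons, rose by 0.45. The Golgi SNARE protein STX6 rose by 0.33 and RUNDC1 by 0.36.

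CADPS, the priming factor of dense-core vesicle exocytosis, read 6.71, 6.76 and 6.72 in shGFP and 6.03, 6.14 and 6.17 in shGLDC99 cells. It fell by 0.62 ± 0.0672 (SE, limma adjusted p = 0.00614), and SYT4, named above, was the other. CADPS, SYT4, SYT11 and KIF1A were past the threshold with any 1 of the 6 arrays left out, HID1 in 3 of these 6 fits, and STX6 and RUNDC1 in 0. The rises then numbered 2 or 3, against 8 without the dimmest 40% of genes and 11 with a prior following intensity.

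Partners and relatives of UNC80, GDAP1, MMP24 and SEZ6 gave 0 rises and 0 falls among 14 measured of 18 in the limma fit. Of these 14, 0 were past the adjusted threshold beside 8.52% of all genes, with a median difference of 0.01. At an unadjusted p under 0.05 3 were higher and 1 lower. UNC79, the partner of UNC80 in the channel complex, differed by 0.24 (adjusted p = 0.0589), and the metalloproteinase MMP16 by -0.26 (0.0594). SEZ6L and SEZ6L2, the paralogs of SEZ6, differed by 0.18 and -0.12. BACE1, the protease that sheds SEZ6, differed by less than 0.01. With such a prior, or without the dimmest 40% of genes, 3 rose (UNC79, SEZ6L and the fusion protein OPA1) and MMP16 fell. More of all genes were called in those fits as well.

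**Figure D4:**
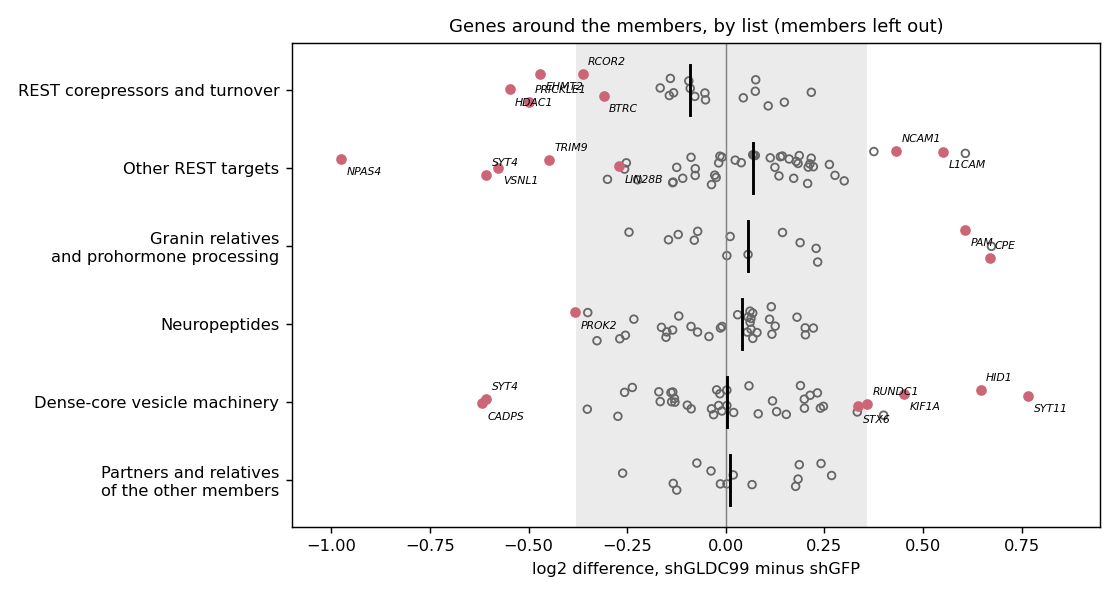
Difference between shGLDC99 and shGFP on the log2 scale for each measured gene of the 6 lists (vertical jitter carries no meaning); red points are past the adjusted p threshold and named, open points are not, black bars are list medians and the grey band spans the 5th to 95th percentile of all genes. List medians lie between -0.09 and 0.07, and the red points lie on both sides of 0 for the other REST targets and the vesicle machinery.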

How the data were processed

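The deposited table holds 31135 probe sets on 6 arrays as log2 intensity; the authors' log base is not stated, and log2 was inferred, since values reach 13.28 and natural logs of 16-bit scanner intensities end at 11.09. Partek is named in the submitters' processing notes, with no version; how background was corrected and probes normalized and summarised is not given in the sources used here. No further normalization and no filter on dim genes was applied. Of the probe sets, 15098 carried 1 gene symbol in the platform annotation (all matched to the RefSeq gene table by Entrez ID, 0 symbols updated), which gave 14779 genes; for the 256 genes with several probe sets the one with the highest mean was kept.

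Differences (shGLDC99 minus shGFP) were fitted with limma 3.58.1 in R 4.3.3 (lmFit, eBayes, no covariates) and adjusted by Benjamini-Hochberg over all 14779 genes; a gene rose or fell where adjusted p was under 0.05. Standard errors are moderated, and precision is limited by having 3 arrays a group. The fit was tested on simulated arrays. The 6 pathway lists (241 genes, of which 20 are listed more than once and 161 were measured) were written from general knowledge. The members, lists and tests were chosen with earlier results of these data known. Besides the members, the 4 genes with the smallest adjusted p in each list were named, with any needed to complete a count of 5 or fewer, and the 5 nearest profiles of REST and SCG2; further genes of a list with their values were chosen after these were seen. Motif searches used Python 3.11.15, plots matplotlib 3.10.9. Alternatives are given in the closing section.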

Additional observations from a re-analysis of the deposited data

How the results depend on the processing

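Quantile normalization again, centring on array medians and leaving out each array in turn changed no member's sign and moved no member's difference by more than the spread between replicates. The other alternatives (dim genes left out, probe sets averaged, the replicate block and the intensity trend) cannot move these differences. REST ranged from -1.45 to -1.28, SCG2 from 1.40 to 1.46 and CHGA from 0.04 to 0.11. Counts past the threshold moved more. The fit without the dimmest 40% of genes tested 8867 genes, and each other fit 14779.

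Leaving out the dimmest 40% of genes gave 969 rises and 1252 falls over all genes, 7 and 2 among the members, 1 rise among corepressors, 7 among other REST targets, 4 rises and 1 fall in processing, 4 falls of neuropeptides, 8 rises in vesicle machinery, and 3 rises and 1 fall among partners. An intensity trend in the prior variance gave 1088 and 1350, 7 and 2, 1, 8, 4 and 1, 3, 11, and 3 and 1 in the same order. Centring on array medians gave 2 neuropeptide falls, and quantile normalization again gave 2 partner rises. Averaging probe sets of a gene left each of these counts within 1.5 times of the reported one. With 1 array left out, 207 to 240 genes rose and 238 to 327 fell over all genes; members that rose numbered 2 to 4, corepressor falls 2 to 3, other REST target rises 0 to 1 and falls 2 to 4, neuropeptide falls 0 to 1 and vesicle machinery rises 2 to 3. Why the counts moved was not tested, and some of these fits also held fewer genes or arrays.

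The replicate letters are shared by the groups, but arrays of 1 letter did not deviate together (correlations -0.0119, 0.0182 and -0.00106), and 2 of 6 arrays correlated best with their own letter. With the replicate block 103 genes rose and 126 fell; the members kept 1 rise (SCG2) and REST. In that fit 0 corepressors fell, 0 other REST targets rose and 2 fell, 1 processing gene (PAM) rose, 0 neuropeptides fell, and 1 vesicle gene rose (SYT11) and 1 fell (CADPS).

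Dim probe sets carry the least certain sizes, since background levels are not given. Allowing the wider half-site spacing, an alternative chosen after seeing the data, raised the member promoters matching at least 17 positions from 1 to 3.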

Other observations

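The same search of promoter windows was run over the list of other REST targets. Of the 34 measured genes of that list with a window, 4 matched at least 14 of 18 positions at the usual spacing, a score reached by 0.658% of all windows. They were chosen here for their sequence: SYN1 (17 matched), RPH3A (17), CAMKV (14) and SCAMP5 (14). SYN1, CAMKV and SCAMP5 differed by 0.22, 0.14 and 0.14 on the log2 scale and RPH3A, whose probe set lay under the median gene level, by -0.02. None of the 4 was past the adjusted threshold of limma (adjusted p = 0.149, 0.347, 0.437 and 0.939). UNC13A, a vesicle priming protein, held both half-sites complete at a wider spacing, as SCG3 did, and differed by -0.01 (limma adjusted p = 0.913).

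CpG content varied among the members' windows. Both REST windows held 44 and 46 CpG pairs, counts reached by 4.19% and 2.89% of all windows, whose median was 14. Those of MMP24 (37), VGF (35), UNC80 (32), CHGA (24) and SCG3 (18) were above that median too, but 44.5% of all windows reached the count of SCG3.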
